A study of Mus musculus with 7 samples.

Results

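The genes that build, branch and break down muscle glycogen were examined in the quadriceps of WT and AR113Q mice. The set comprised 9 genes, Gyg, Gys1, Gbe1, Pygm, Phka1, Phkb, Phkg1, Ppp1r3a and Ppp1r3c, and every probe that carried one of these names, directly or through its RefSeq accession, was taken. This gave 13 of the 39429 probes on the array, 1 probe for 5 genes and a pair of probes for 4 genes. All 13 probes were well above background on all 7 arrays, so none was lost to the filter that kept 20987 probes for testing.

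Total RNA of whole quadriceps from 3-month-old C57BL/6 mice was hybridised to single-dye (Cy3) Agilent arrays, 1 mouse per array, with 4 WT and 3 AR113Q mice. AR113Q is a knock-in mouse line that serves as a model of spinobulbar muscular atrophy (SBMA), a disease of motor neurons and muscle. The mice were examined at an age that the study places before the onset of motor dysfunction. The labels call the controls WT, whereas the results text of the study describes a knock-in control line, and the sources used here do not settle which applies. The study's design text adds the letters NCD to the name of the mutant group without spelling them out. The knock-in allele is not restricted to muscle, and no treatment is given for either group in the labels.

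Glycogen is the glucose store of the myofiber. Glycogenin starts each particle, glycogen synthase lengthens its chains and the branching enzyme joins them, while glycogen phosphorylase releases glucose-1-phosphate when the muscle contracts. Phosphorylase is switched on by phosphorylase kinase, an enzyme that responds to calcium, and protein phosphatase 1 (PP1), held on the particle by targeting subunits, reverses this and activates glycogen synthase.

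Phkg1, which encodes the catalytic gamma subunit of phosphorylase kinase in muscle, was read by 2 probes that cover nearly the same stretch of the transcript. They are shown because they differ at a single base over the 53 bases they share, given as A15C from the brighter to the dimmer probe and counted from the 5′ end of the brighter probe (bases 8 to 37 of it are shown, with the differing base in capitals).
Phkg1, brighter probe: gcccgggAagtctagtgatgcttatttcaa
Phkg1, dimmer probe: gcccgggCagtctagtgatgcttatttcaa
The array annotation (mm9) placed them on the minus strand at chr5:130340040-130340099 and chr5:130340033-130340092. Both probes carry this gene's name, and which of the bases the mm9 genome holds was not analysed here. Because of the overlap they count as repeat readings of 1 transcript region and not as independent measurements.

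The sequence just upstream of the gene start is shown for the 4 genes called with a log2 fold change of at least 1 in size (Phka1, Phkg1, Ppp1r3a and Ppp1r3c), as 150 bases in the direction of transcription from RefSeq (GRCm38.p6). Capitals mark E-boxes (CANNTG, which reads the same on both strands), the motif bound by the basic helix-loop-helix factors of muscle among others.
Phka1, chrX:102644247-102644396, minus strand: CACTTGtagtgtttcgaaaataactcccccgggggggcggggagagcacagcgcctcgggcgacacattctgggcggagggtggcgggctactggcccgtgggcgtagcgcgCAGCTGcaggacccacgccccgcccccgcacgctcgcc
Phkg1, chr5:129879089-129879238, minus strand: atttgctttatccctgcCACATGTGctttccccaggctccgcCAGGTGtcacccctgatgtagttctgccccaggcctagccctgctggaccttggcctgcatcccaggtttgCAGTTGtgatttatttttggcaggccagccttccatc
Ppp1r3a, chr6:14755275-14755424, minus strand: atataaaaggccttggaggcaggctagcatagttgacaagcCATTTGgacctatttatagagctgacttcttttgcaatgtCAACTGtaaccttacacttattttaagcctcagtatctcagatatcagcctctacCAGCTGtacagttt
Ppp1r3c, chr19:36736605-36736754, minus strand: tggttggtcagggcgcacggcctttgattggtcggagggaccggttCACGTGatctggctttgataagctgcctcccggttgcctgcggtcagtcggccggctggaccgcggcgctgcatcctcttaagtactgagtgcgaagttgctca
Over the 250 bases upstream of the start, 8 of the 9 genes held an E-box, as did 66.2% of 32851 mouse promoters. Phkg1 held 5 E-boxes and Ppp1r3a held 4, numbers reached or exceeded by 1.15% and 3.84% of promoters, respectively, and Phkb held 0. A MEF2 motif, searched on both strands, was found in Ppp1r3a, where it begins 100 bases before the start, and in 0.508% of promoters. These matches describe the letters of the sequence and were not tested as binding sites.

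The comparison of AR113Q with WT asked which steps of glycogen metabolism differed in RNA level before the onset of motor dysfunction. Signals are given as log2 of the array signal after quantile normalisation, and a probe was called when its adjusted p in limma, with Benjamini-Hochberg adjustment over all probes kept, was at most 0.05. Of the 13 probes, 8 were lower in AR113Q and 0 were higher, also at an unadjusted p, whereas of all probes tested 21.6% were lower and 22.2% were higher. When the log2 fold change also had to reach 1 in size, 5 of the 13 probes were called, all lower, against 12.6% lower and 12.2% higher among all probes. In 9 of the 13 probes all 3 AR113Q arrays lay below all 4 WT arrays, which held for 24.2% of all probes. Counted by gene at the brighter probe, 6 of 9 genes were lower, with 22.5% of all genes lower and 21% higher. The median log2 fold change was -0.49 over the 13 probes, and over all probes tested it was 0.01. In bulk muscle, fewer cells of a type and less RNA per cell cannot be told apart.

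**Figure D1:**
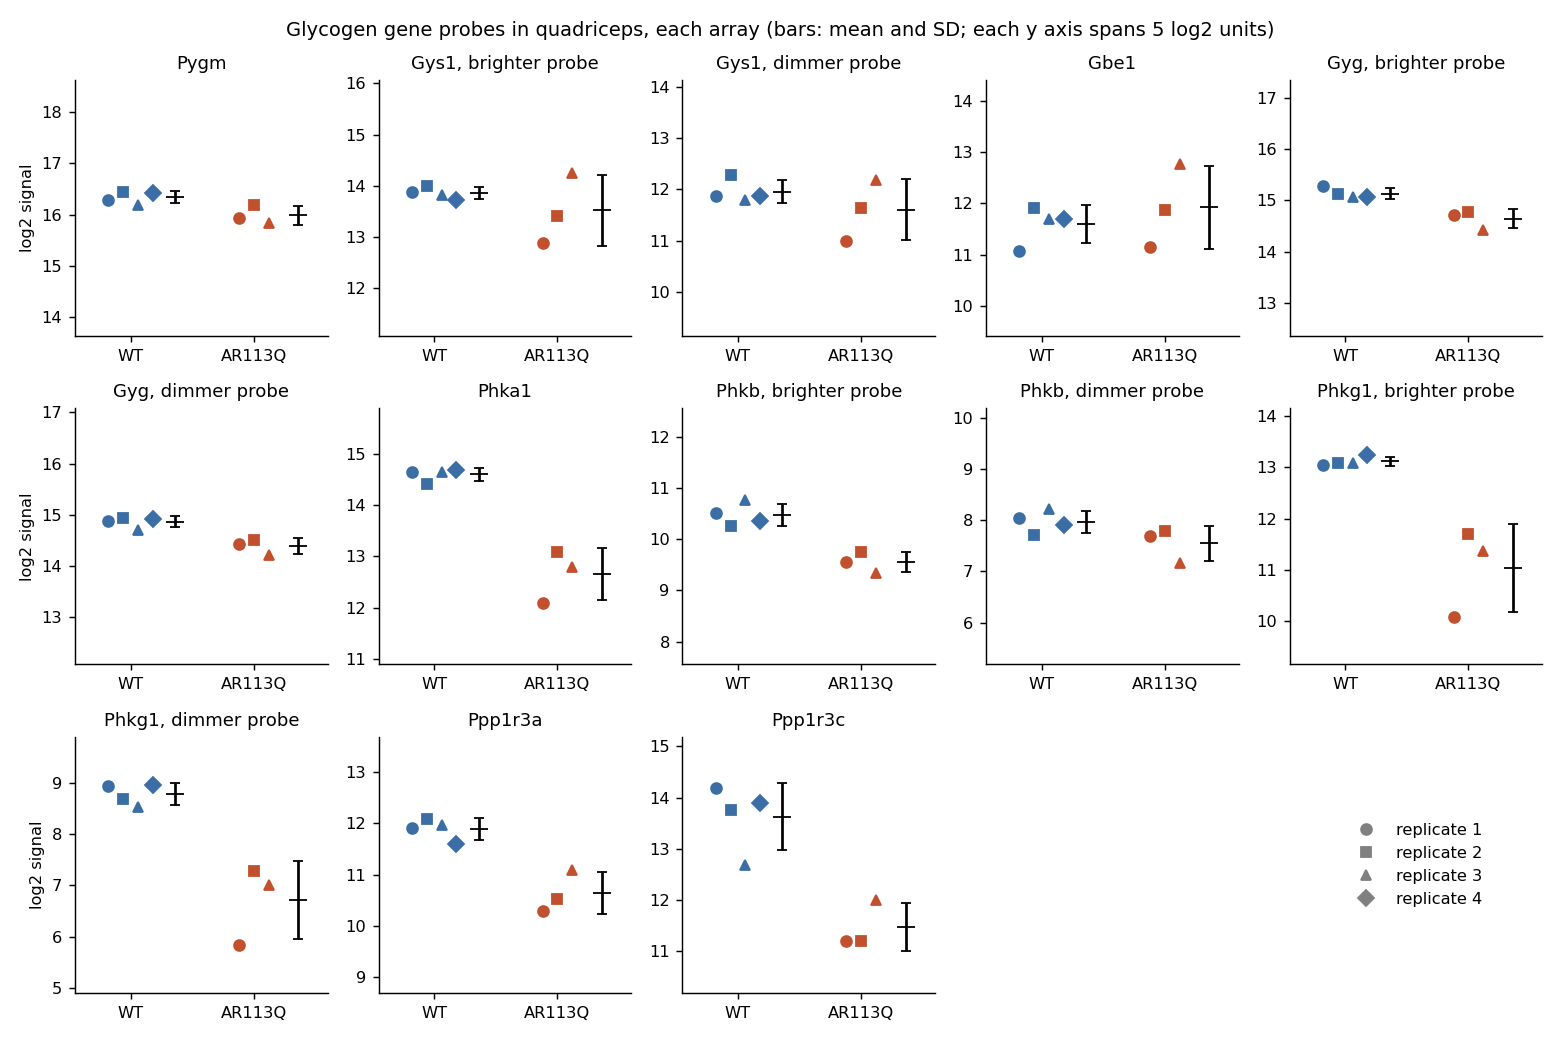
Log2 signal of the 13 probes on each array, in 1 panel per probe, with WT in blue and AR113Q in orange, marker shapes for replicate numbers, and black bars for the mean and SD (n = 4 and n = 3). The y axes have the same length and different origins, and the AR113Q points lie wholly below the WT points in 9 panels.

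Phka1, Phkb and Phkg1, the subunits of phosphorylase kinase in the set, were each lower in AR113Q at their brighter probe. Phka1 encodes the muscle form of the regulatory alpha subunit, and its probe lies at chrX:99710704-99710763 (mm9, minus strand). Its log2 signal was 14.65, 14.41, 14.65 and 14.69 in WT replicates 1 to 4 and 12.09, 13.09 and 12.79 in AR113Q replicates 1 to 3. The groups did not overlap, and AR113Q replicate 1 was the lowest. Phka1 was 3.85-fold lower in AR113Q (log2 fold change -1.95, SE 0.24, adjusted p = 0.000637).

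Phkg1 gave log2 signals of 13.05, 13.10, 13.08 and 13.24 in WT and 10.07, 11.70 and 11.37 in AR113Q at the brighter of the probes shown above. At the dimmer probe the signals were 8.94, 8.69, 8.52 and 8.96 in WT and 5.84, 7.28 and 7.01 in AR113Q. At both probes the groups were far apart and AR113Q replicate 1 was again the lowest. The decrease was 4.20-fold at the brighter probe (log2 fold change -2.07, SE 0.35, adjusted p = 0.00233) and 4.19-fold at the dimmer one (SE 0.33, adjusted p = 0.00182). The close match did not hold under every alternative, and with the normalized values of the authors the dimmer probe gave a log2 fold change of -1.05 and with normexp correction -1.28, both still called.

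Phkb encodes the beta subunit, which is shared by the enzyme of muscle and of other tissues, and its probes read different parts of the gene. The brighter probe, at chr8:88583860-88583919, gave 10.51, 10.26, 10.76 and 10.35 in WT and 9.56, 9.76 and 9.35 in AR113Q. It did not overlap between groups and was 1.89-fold lower (log2 fold change -0.92, SE 0.18, adjusted p = 0.00483). The other probe, at chr8:88553459-88553518, gave 8.04, 7.71, 8.21 and 7.91 in WT and 7.70, 7.79 and 7.15 in AR113Q. Here AR113Q replicate 2 lay above the lowest WT array and the difference did not pass (log2 fold change -0.42, SE 0.21, adjusted p = 0.135), which made Phkb the only one of the 4 genes with a pair of probes to have them on both sides of the threshold.

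Ppp1r3c and Ppp1r3a, the PP1 targeting subunits in the set, fell as well. Ppp1r3c, which encodes protein targeting to glycogen, is read at chr19:36806457-36806516 (minus strand), and its log2 signal was 14.18, 13.75, 12.68 and 13.89 in WT and 11.20, 11.21 and 12.01 in AR113Q. WT replicate 3 was the lowest control and still above every AR113Q array. The decrease was 4.45-fold (log2 fold change -2.16, SE 0.37, adjusted p = 0.00259), which differs from that of Phkg1 by less than their standard errors.

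Ppp1r3a encodes the targeting subunit of striated muscle, and its probe lies at chr6:14664312-14664371 (minus strand). The signals were 11.91, 12.08, 11.97 and 11.59 in WT and 10.30, 10.52 and 11.09 in AR113Q. The groups did not overlap, with AR113Q replicate 3 closest to the controls, and the decrease was 2.38-fold (log2 fold change -1.25, SE 0.22, adjusted p = 0.00298).

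Within the set, the enzymes that make and cleave the polymer itself moved less, each read at its brighter probe. Gyg encodes glycogenin. Its brighter probe, annotated at chr3:20022033-20022092 (minus strand), gave 15.28, 15.12, 15.07 and 15.06 in WT and 14.72, 14.78 and 14.43 in AR113Q. The other probe gave 14.88, 14.95, 14.71 and 14.93 in WT and 14.44, 14.51 and 14.22 in AR113Q. All AR113Q arrays lay below all WT arrays at both probes, by a small margin. The log2 fold changes were -0.49 (SE 0.16, adjusted p = 0.0338) and -0.48 (SE 0.15, adjusted p = 0.0330), a decrease of 1.41-fold and 1.39-fold. The array annotation placed the second probe on another chromosome, at chr10:101024144-101024203, although 45 of its 60 bases are identical to the first, so the pair is not independent. The call was lost at the first probe without any one of the 4 WT arrays or without AR113Q replicate 3, with adjusted p of 0.0618 to 0.0917 (0.00675 to 0.322 over all alternatives). It was lost at the second without WT replicate 1, 2 or 4 or without AR113Q replicate 1 or 3, with adjusted p of 0.0503 to 0.0807 (0.0121 to 0.263 over all alternatives). The sign did not change under any alternative.

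Pygm encodes muscle glycogen phosphorylase, the enzyme missing in McArdle disease, and is read at chr19:6398389-6398448. The signals were 16.29, 16.43, 16.19 and 16.43 in WT and 15.93, 16.19 and 15.83 in AR113Q. The AR113Q arrays lay below the WT arrays, the highest of them just under the lowest control. The difference was a log2 fold change of -0.35 (SE 0.16, 95% confidence interval -0.71 to 0.01, adjusted p = 0.106) and did not pass. With each array centred on its 75th percentile in place of quantile normalisation it was -0.65 and passed (adjusted p = 0.0115), and with a variance prior that follows the signal it passed at adjusted p = 0.0497, within a range of 0.0115 to 0.275 over the alternatives.

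Gys1 encodes muscle glycogen synthase. Its brighter probe, at chr7:52711790-52711849, gave 13.89, 14.01, 13.83 and 13.73 in WT and 12.89, 13.42 and 14.26 in AR113Q. At the other probe, at chr7:52711158-52711217, the signals were 11.88, 12.28, 11.80 and 11.86 in WT and 11.00, 11.63 and 12.18 in AR113Q. At both probes, AR113Q replicates 1 and 2 lay below every WT array, whereas replicate 3 lay above all WT arrays at the brighter probe and above 3 of them at the other. The log2 fold changes were -0.34 (SE 0.30, adjusted p = 0.382) and -0.35 (SE 0.28, adjusted p = 0.333). Without AR113Q replicate 3 the brighter probe was called, at -0.71 (adjusted p = 0.0243, range over the alternatives 0.0243 to 0.957). Without AR113Q replicate 1 it gave -0.02 (adjusted p = 0.957) and the other probe -0.05.

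Gbe1 encodes the branching enzyme and was the only gene of the set with a positive log2 fold change. Its probe, at chr16:70569840-70569899, gave 11.06, 11.92, 11.69 and 11.70 in WT and 11.15, 11.86 and 12.76 in AR113Q. The groups overlapped, and AR113Q replicate 3 alone lay above the controls. The log2 fold change was 0.33 (SE 0.37, 95% confidence interval -0.52 to 1.19, adjusted p = 0.494), and without that array it was -0.09.

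AR113Q replicate 3 also stood apart in fiber type markers. Slow fiber markers (8 genes, among them Myh7, the slow myosin heavy chain) varied widely within both genotypes. Their mean deviation from the WT mean was -2.0, 1.93, 1.91 and -1.83 on the log2 scale in WT replicates 1 to 4 and -1.51, -1.79 and 3.34 in AR113Q replicates 1 to 3. The summed signal of the list ranged from 1432.5 to 33294 in WT and from 1513.7 to 83239 in AR113Q. The array with the highest slow fiber signal was thus the AR113Q array with the highest Gys1, Gbe1, Ppp1r3a and Ppp1r3c. It also had the lowest Pygm, Gyg and Phkb and lay in the middle for Phka1 and Phkg1, a match on 1 array. In WT, where replicates 2 and 3 were high and replicates 1 and 4 low in slow fiber markers, the brighter Phkg1 probe varied between 13.05 and 13.24 and Phka1 between 14.41 and 14.69. The dimmer Phkg1 probe was lower in WT replicates 2 and 3 (8.69 and 8.52) than in 1 and 4 (8.94 and 8.96), and so was Ppp1r3c (13.75 and 12.68 against 14.18 and 13.89). Ppp1r3a ran the other way (12.08 and 11.97 against 11.91 and 11.59). For Pygm and Phkb, WT replicates 2 and 3 lay at opposite ends of the WT range, at 16.43 and 16.19 for Pygm and at 10.26 and 10.76 for the brighter Phkb probe. For Gys1, Gbe1 and Gyg, WT replicates 2 and 3 did not lie together above or below replicates 1 and 4. The part of fiber type in these results was not tested.

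**Figure D2:**
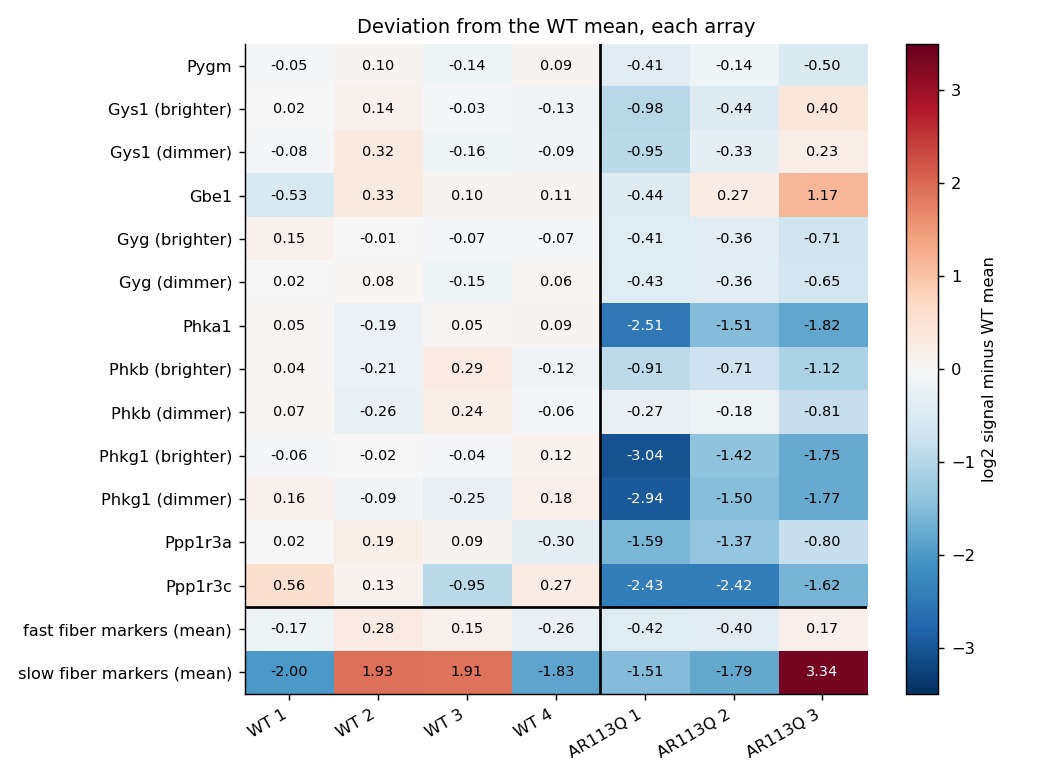
Deviation of the log2 signal from the WT mean of the same probe, for the 13 probes and for the mean of 10 fast and 8 slow fiber marker genes (rows), on each array (columns). Phka1, Phkg1, Ppp1r3a and Ppp1r3c were below the WT mean on all 3 AR113Q arrays, whereas the slow fiber markers reached 1.93 in WT and 3.34 in AR113Q.

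The rest of the pathway was read from 35 further genes at their brighter probe, of which 31 passed the filter. Of these, 15 were lower in AR113Q (48.4%) and 4 were higher (12.9%), where 22.5% of all genes were lower and 21% higher, with a median log2 fold change of -0.55 that does not depend on the value taken for Gys2. The genes not tested were Pgm2, Ppp1r3e, Ppp1r3f and Ppp1r3g. All 3 tested genes listed with the supply of glucose-1-phosphate and UDP-glucose fell at their brighter probe. Pgm1, phosphoglucomutase, fell from 16.46, 16.62, 16.36 and 16.35 in WT to 13.83, 14.67 and 14.79 in AR113Q (log2 fold change -2.02, adjusted p = 0.000569). Ugp2, which makes UDP-glucose, changed by -1.14 (adjusted p = 0.0145) and Pgm2l1 by -0.55 (adjusted p = 0.0411). The other Ugp2 probe gave -1.20 (adjusted p = 0.0101). The other Pgm2l1 probe overlapped between groups and did not pass (-0.43, adjusted p = 0.269). The call of Pgm2l1 was lost without any single array other than AR113Q replicate 2 (adjusted p of 0.0678 to 0.0962), and over all alternatives its adjusted p ran from 0.0252 to 0.178.

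Other enzymes of synthesis and breakdown fell as well. Pygl, the liver form of phosphorylase, changed by -1.66 (adjusted p = 0.000406) and Pygb, the brain form, by -0.77 (adjusted p = 0.0202). The Pygb call was lost without WT replicate 1 or 2 or AR113Q replicate 1, with adjusted p of 0.0543, 0.0503 and 0.0654 (0.0119 to 0.0749 over all alternatives). Gys2, the liver form of glycogen synthase, was well above background on all 4 WT arrays and on 0 of the 3 AR113Q arrays, and was at least 4.53-fold lower in AR113Q (adjusted p = 0.00130). It passed the filter through the WT arrays alone, so its call is no support for the count of lower genes, which was 14 when a probe had to be well above background on all 7 arrays. For this bound, each AR113Q array was given the dimmest signal that still counted as well above background there, or the probe's own signal if higher, and the WT mean was divided by the mean of these. The size depended on the processing, and the authors' normalized values gave log2 fold changes of -0.37 for Gys2, -1.02 for Pygl and -0.31 for Pygb, each still called. In lysosomal breakdown, Stbd1, which binds glycogen for delivery to the lysosome, changed by -1.43 (adjusted p = 0.00302), whereas Gaa, acid alpha-glucosidase, gave 0.13 (adjusted p = 0.636).

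**Figure D3:**
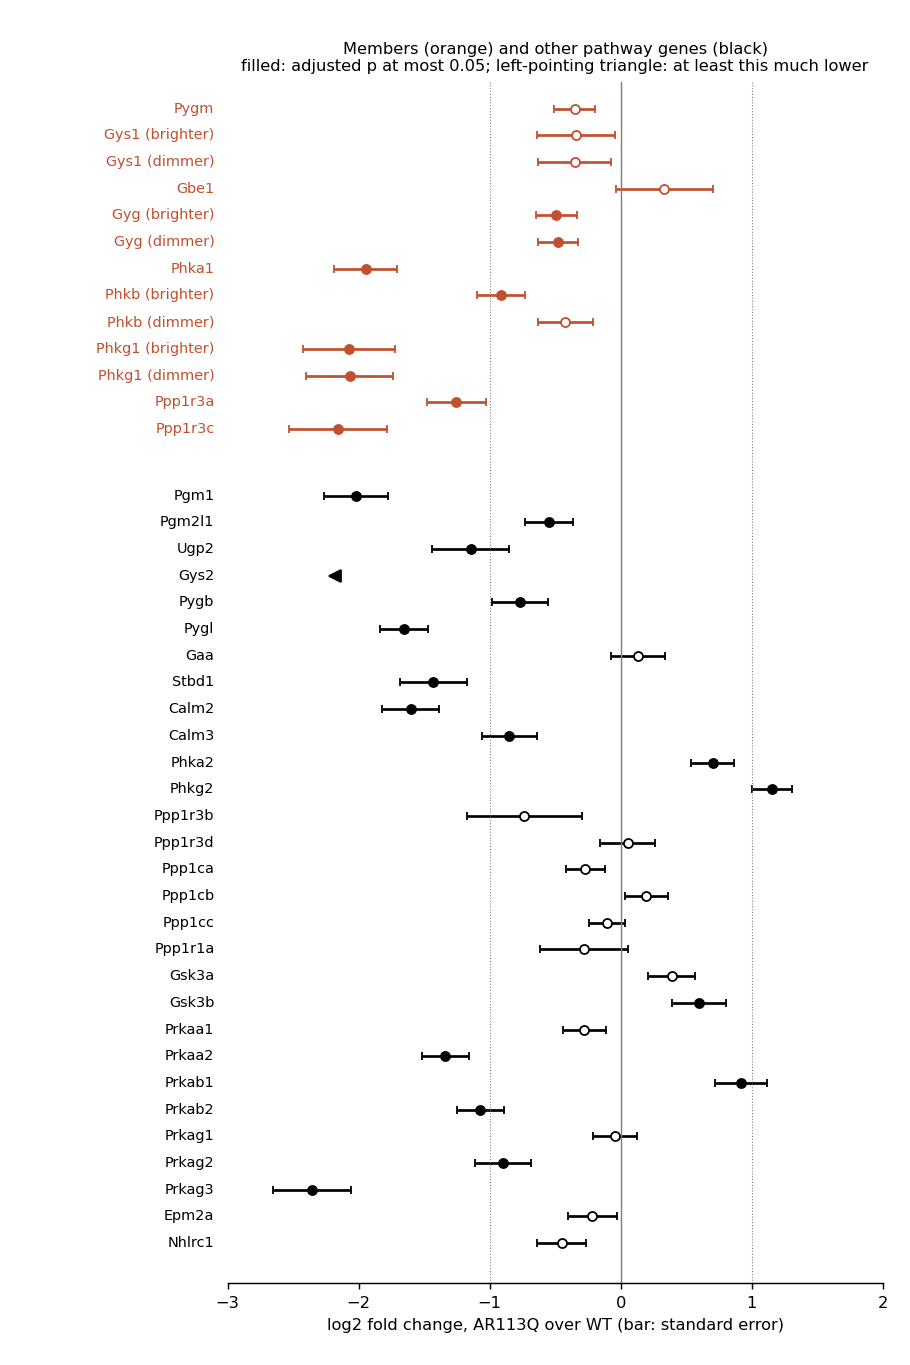
Log2 fold change of AR113Q over WT (x axis) with its standard error for the 13 probes (orange) and for 29 of the other pathway genes tested (black), filled where the adjusted p was at most 0.05. Dotted lines mark a log2 fold change of -1 and 1, and the triangle gives the 4.53-fold bound for Gys2.

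Among the other subunits of phosphorylase kinase, the genes split by direction. Calmodulin is the delta subunit and has many other partners. Calm2 and Calm3 changed by -1.60 (adjusted p = 0.000896) and -0.85 (adjusted p = 0.0121). Phka2 and Phkg2, which encode the alpha and gamma subunits of the liver enzyme, rose. Phka2 gave 9.28, 9.61, 9.48 and 9.25 in WT and 10.09, 9.96 and 10.28 in AR113Q (log2 fold change 0.70, SE 0.16, adjusted p = 0.00970). Phkg2 gave 9.99, 9.85, 10.12 and 9.84 in WT and 11.26, 11.01 and 11.04 in AR113Q (log2 fold change 1.15, SE 0.15, adjusted p = 0.000864). In both liver genes all AR113Q arrays lay above all WT arrays, opposite to Phka1 and Phkg1.

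The opposite moves were followed within each array as the log2 ratio of the paired probes. The ratio is not a ratio of transcripts, since probes respond differently, but its change between arrays cancels what the probes share. The pairs were chosen after their values were seen, so no test is given. Phka1 over Phka2 ranged from 4.80 to 5.44 in WT and from 2.0 to 3.14 in AR113Q, a difference of means of -2.65. Phkg1 over Phkg2 ranged from 2.96 to 3.40 in WT and from -1.19 to 0.68 in AR113Q, a difference of -3.23. In neither pair did the groups overlap, which was already fixed by the opposite moves of the paired genes, each without overlap.

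AMP-activated protein kinase, which senses energy state and binds glycogen through its beta subunits, had 4 subunit genes lower and 1 higher of 7, a count to be read against the 22.5% lower and 21% higher among all genes. Prkag3, the gamma subunit typical of fast muscle, gave 10.51, 9.84, 10.21 and 10.37 in WT and 7.52, 8.59 and 7.52 in AR113Q (log2 fold change -2.36, SE 0.30, adjusted p = 0.000692). Prkaa2, the alpha subunit prevalent in muscle, changed by -1.34 (adjusted p = 0.000858) and Prkag2 by -0.89 (adjusted p = 0.0109). Prkab2, the beta subunit prevalent in muscle, fell by 1.07 on the log2 scale (adjusted p = 0.00229) while Prkab1 rose by 0.92 (adjusted p = 0.00679), or by 0.32 with the authors' normalized values. The log2 ratio of Prkab2 over Prkab1, also chosen after its values were seen, was 5.96 ± 0.12 (SD, n = 4) in WT. In AR113Q it was 3.97 ± 0.13 (SD, n = 3), without overlap, which was fixed in the same way.

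**Figure D4:**
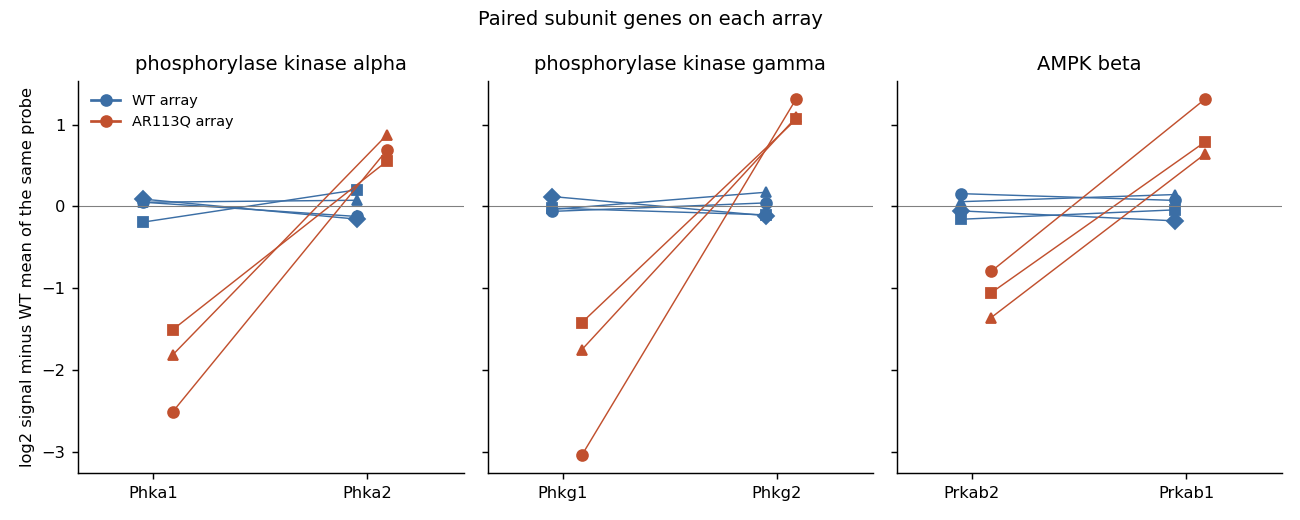
Log2 signal minus the WT mean of the same probe (y axis) for 3 pairs of subunit genes, with a line for each array (WT blue, AR113Q orange). Every AR113Q line rises from the first gene to the second, and the difference between genotypes in the log2 ratio of the pair was -2.65 for Phka1 over Phka2, -3.23 for Phkg1 over Phkg2 and -1.99 for Prkab2 over Prkab1.

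The remaining regulators are given beside the 22.5% lower and 21% higher among all genes, and nothing is read from counts in lists this short. Gsk3b, a kinase that inhibits glycogen synthase, was higher at its brighter probe (log2 fold change 0.60, adjusted p = 0.0470, 0.00547 to 0.138 over the alternatives), and lost the call without any single array other than AR113Q replicate 3 (adjusted p of 0.0753 to 0.138). Its other probes gave 0.80 (adjusted p = 0.0533) and -0.26 (adjusted p = 0.269). Of the other PP1 targeting subunits 0 of 2 tested passed, and Ppp1r3b gave -0.74 (adjusted p = 0.206). Of the PP1 catalytic subunits and inhibitor 0 of 4 passed, and Ppp1r1a gave -0.28 (adjusted p = 0.532). Laforin and malin, which act on abnormal glycogen, gave 0 of 2, with Nhlrc1 at -0.45 (adjusted p = 0.0833).

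The genes whose pattern over the 7 arrays was most like that of Pygm were Napg, Tfpi and Mettl26. Their root mean square difference from Pygm, each centred on its WT mean, was 0.0634, 0.0725 and 0.0726 on the log2 scale. Their own log2 fold changes were -0.32, -0.43 and -0.33, with adjusted p of 0.109, 0.0581 and 0.117. That these lie near the value of Pygm follows from the way the genes were chosen.

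The 7 arrays were spread over 5 slides, all scanned on 1 date, and the genotypes met on 1 slide, which carried replicate 2 of WT together with replicate 1 of AR113Q. These arrays are part of the full comparison, and at the 8 called probes the genotypes did not overlap, so the sign within the slide was fixed there and is no separate evidence. The within-slide difference was -2.32 for Phka1, -3.02 and -2.85 for Phkg1, -1.79 for Ppp1r3a, -2.56 for Ppp1r3c, -0.71 for the brighter Phkb probe and -0.40 and -0.51 for Gyg. It was -0.50 for Pygm, -1.12 and -1.28 for Gys1 and -0.77 for Gbe1, whose sign in the full comparison was positive. With slide as a fixed effect, where that slide alone carries the difference between genotypes, 0 of the 20987 probes passed.

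Between 47.6% and 55.8% of probes were well above background per array, and no spot was saturated. All 8 skeletal muscle markers were well above background on all arrays, and 2 were lower in AR113Q, Mylpf (log2 fold change -1.37, adjusted p = 0.00400) and Ckm, creatine kinase (-0.80, adjusted p = 0.0101). None of the fast fiber markers was higher and 2 of 10 were lower, with a median of -0.06, while of the slow fiber markers 1 of 8 was higher (Atp2a2, 1.42, adjusted p = 0.0246) and 0 were lower. Markers of other cells are given beside the 22.5% lower and 21% higher among all genes, and with 4 or 5 genes a list nothing is read from the shorter counts. Lower in AR113Q were 4 of 5 adipocyte markers, led by Adipoq (-2.71), and 3 of 5 fibroblast markers, led by Col3a1 (-4.62). The other fibroblast markers were Dcn, with the highest signal of the list, at 0.41 (adjusted p = 0.0706) and Pdgfra at -0.27 (adjusted p = 0.424). The summed signal of adipocyte markers ranged from 32401 to 63339 in WT and from 11250 to 20085 in AR113Q, and that of fibroblast markers from 75422 to 90200 and from 71756 to 96721. Macrophage markers had 2 of 4 lower (Adgre1, -1.94) and 1 higher (Cd163, 1.18), Schwann cell markers 1 of 4 lower and 1 higher (Mbp, 0.56), smooth muscle markers 2 of 4 lower (Acta2, -0.74) and endothelial markers 1 of 4 higher (Pecam1, 0.60). Of 4 hepatocyte markers, Apoa1 and Ttr were well above background on 0 arrays, and the 1 tested, Serpina1a, gave 0.20 (adjusted p = 0.693). The part of other cell types in the glycogen results was not tested.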

How the data were processed

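Quadriceps RNA of 4 WT and 3 AR113Q mice was measured on Agilent mouse arrays, and the groups were taken from the labels. The authors extracted spots with Feature Extraction 10.7.3.1 and deposited, per the file headers, an intensity per spot that is background-subtracted and not normalized between arrays. A second file that the authors deposited gives log2 values of 18592 probes, quantile normalized according to their methods, and served as an alternative. Background subtraction widens the scatter of dim probes most on a log2 scale.

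From the scanner files, control spots and spots marked as outliers were left out, log2 intensity was quantile normalized and spots of a probe were averaged. A probe was kept if 3 or more of the 7 arrays marked it as well above background. The test was lmFit and eBayes of limma 3.58.1 (R 4.3.3) without covariates, with Benjamini-Hochberg adjustment over the 20987 kept probes. Calls needed an adjusted p of at most 0.05, and the fold threshold was an absolute log2 fold change of 1. A gene was read at its kept probe with the highest mean, here called the brighter probe. The script was tested on simulated data. The number of arrays limits the precision. Labels and methods name single mice but not litters, so p-values measure the spread between these mice only.

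Members, pathway lists, markers and tests were chosen with earlier results of these data known. The genes named were every member probe, every pathway gene that passed, the largest change of each pathway list with no call, the largest marker changes in each direction of each list, and the 3 genes most like Pygm. A few genes that this rule names are not reported here. Gene names came through RefSeq accessions of the GRCm38.p6 table, which matched 17054 of the kept probes, or else were those of the array. Positions of probes follow the array annotation (mm9), and exons and UTRs were not analysed here. Promoters are RefSeq sequence of GRCm38.p6.

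Alternatives were 75th percentile scaling, normexp background correction (offset 50), the authors' table, no filter on dim probes or a filter on all 7 arrays, retention of outlier spots, an eBayes prior with intensity trend, a block for replicate number, slide as a fixed effect or random block, weights per array, 1 probe per gene, unadjusted p, and leaving out each array.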

Additional observations from a re-analysis of the deposited data

Results flagged for a closer look

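In WT, Phka1 in replicate 2 had a log2 signal of 14.41, apart from the other 3 WT arrays at 14.65 to 14.69. The gap took 0.864 of the range of the group, above Dixon's critical value for 4 samples. It was the only 1 of 44 WT groups examined to be so, and chance alone marks about 1 in 20. The value was still above every AR113Q array.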

How the results depend on the processing

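The count of lower glycogen probes (8) stayed within 6 to 9 and that past the fold threshold (5) within 4 to 6 under every alternative except slide as a fixed effect, and the count of higher probes was 0 throughout. Under that setting, in which 1 slide alone compares the genotypes, 0 probes were lower and 0 past the fold threshold, and in the rest of the pathway 0 genes were lower and 0 higher. Gbe1 turned to -0.765 there and to -0.0851 without AR113Q replicate 3, and single arrays left out moved it as far as 0.72. With any single array left out, 6 to 8 probes were lower, 0 to 0 higher and 5 to 6 past the fold threshold, and 13 to 16 pathway genes were lower and 3 to 4 higher. The correlations of same-numbered deviations were 0.0405, -0.0160 and 0.156. With so few arrays they cannot settle whether the replicate numbers pair the samples. The replicate block gave 6 probes lower and 0 higher, 5 past the fold threshold, 13 pathway genes lower and 2 higher (from 15 and 4), and 3540 probes lower and 3683 higher in all (from 4539 and 4661). The cause of these changes was not tested. The random slide block gave the same 8, 5, 15 and 4. Over all alternatives, member probes kept sign and side of the threshold in 230 comparisons, lost a call in 21, gained one in 3 and turned sign in 2, while pathway genes that were called kept it in 335 and lost it in 44. Of the other alternatives, array weights lost the second Gyg probe (-0.43, adjusted p = 0.0505). All 13 probes were well above background, but the size of the change at the dimmer Phkg1 probe moved from -2.07 to -1.28 with normexp and to -1.05 with the authors' values. Signal over background limits Gys2 to a bound. With 3 AR113Q mice, differences the size of those of Gys1 and Gbe1 were within their error.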
